A study of Homo sapiens with 8 samples.

Results

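The genes described here encode 3 apolipoproteins (APOE, APOC1, APOC2), 2 coat proteins of lipid droplets (PLIN2, PLIN3), 3 enzymes that esterify cholesterol or diacylglycerol (SOAT1, DGAT1, DGAT2), the triglyceride lipase PNPLA2 and its inhibitor HILPDA. They were matched by gene symbol to 10 of the 78899 genes of a deposited count table, each through a single Ensembl gene. The libraries were made from microglia, the resident macrophages of the brain, derived from the H1 line. H1 is an established human embryonic stem cell line, although the labels also call the cells iPSC-derived, and no other line was sequenced. Mono-cultures (4 libraries) held microglia alone fed with the CSF1 receptor ligands IL-34, at 100 ng/mL, and M-CSF, at 10 ng/mL, whereas tri-cultures (4 libraries) held microglia with other cells, not named in the labels, and no added cytokine. Both kinds of microglia carried GFP and were sorted by fluorescence 2 weeks after plating, in 4 batches that each gave 1 library per group. The effects of partner cells and of the missing cytokines cannot be told apart in this design.

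Apolipoprotein E is the main lipid carrier of the brain and is made by astrocytes and by microglia. APOC1 and APOC2 are small apolipoproteins encoded beside it on chromosome 19; APOC2 is the cofactor of lipoprotein lipase. Inside cells, excess cholesterol and fatty acids are esterified in the endoplasmic reticulum, by SOAT1 and by the DGAT enzymes respectively, and stored in droplets. The droplets are coated by perilipins and emptied by PNPLA2, which HILPDA restrains. Lipid-laden microglia with perilipin-coated droplets are known from ageing and disease.

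Of the 10 genes, 9 had enough counts to be tested. APOE and APOC1 rose in tri-culture, 1.84-fold and 2.68-fold. PLIN2 fell by 1.09 on the log2 scale (2.13-fold lower) and SOAT1 by 0.41 (1.33-fold lower). The other 5 tested genes did not pass an adjusted p under 0.05 in edgeR's quasi-likelihood test. For comparison, 26.9% of the 16249 genes tested passed, 13.9% higher and 13.0% lower, so 2 higher and 2 lower of 9 is not far from the background share. The median log2 fold change was -0.08 over the 9 genes and 0.02 over all tested genes.

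The sequences before the RefSeq start sites of the genes that passed are shown, as the annotated promoter sequence of the genes called. Which start sites were used was not measured, and the windows of APOC1 and PLIN2 lie inside the longer GENCODE 29 gene models. Each holds 250 bases of GRCh38.p14 on the gene's strand, 5′ to 3′. Capitals mark matches on either strand to 4 of 8 motifs searched: the GC box GGGCGG, the TATA box TATAAA, the E-box CACGTG and the hypoxia response element core ACGTG, which lies inside CACGTG.
APOE, chr19:44905546-44905795, plus strand: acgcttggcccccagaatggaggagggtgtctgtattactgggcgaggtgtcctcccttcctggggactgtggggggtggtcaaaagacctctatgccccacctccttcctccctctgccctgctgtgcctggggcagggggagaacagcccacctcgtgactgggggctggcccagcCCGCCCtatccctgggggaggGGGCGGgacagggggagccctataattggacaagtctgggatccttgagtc
APOC1, chr19:44914422-44914671, plus strand: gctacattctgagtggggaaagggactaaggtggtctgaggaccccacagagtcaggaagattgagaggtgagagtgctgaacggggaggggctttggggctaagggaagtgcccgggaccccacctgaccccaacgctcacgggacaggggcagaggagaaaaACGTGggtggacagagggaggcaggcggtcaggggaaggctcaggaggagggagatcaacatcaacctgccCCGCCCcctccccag
PLIN2, chr9:19127493-19127742, minus strand: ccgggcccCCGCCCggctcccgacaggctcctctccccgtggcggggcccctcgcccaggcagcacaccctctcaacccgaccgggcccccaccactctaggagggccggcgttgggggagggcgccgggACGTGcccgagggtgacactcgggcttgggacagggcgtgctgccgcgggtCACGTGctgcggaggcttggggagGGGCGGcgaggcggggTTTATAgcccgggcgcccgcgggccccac
SOAT1, chr1:179293547-179293796, plus strand: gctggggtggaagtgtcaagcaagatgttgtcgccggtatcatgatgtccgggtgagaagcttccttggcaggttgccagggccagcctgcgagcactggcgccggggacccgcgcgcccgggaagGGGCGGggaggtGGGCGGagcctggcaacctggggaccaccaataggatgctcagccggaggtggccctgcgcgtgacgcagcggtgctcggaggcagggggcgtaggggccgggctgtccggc

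All 4 windows held a GC box, as did 42.6% of the 35116 RefSeq windows of this length. The PLIN2 window also held the E-box, found in 6.34% of all windows, a TATA box on the opposite strand (10.7% of all windows) and 3 matches to ACGTG (present in 18.5%), 2 of which overlap the E-box. The APOC1 window held 1 ACGTG, and the APOE and SOAT1 windows held none. No match in these 4 windows was found to the PU.1 core GAGGAAGT (2.17% of all windows), the AP-1 site TGANTCA (6.57%), or direct repeats of AGGTCA with 4 bases between them (DR4, bound by LXR with RXR) or 1 base (DR1, bound by PPAR with RXR), present in 5 and 6 of the 35116 windows. The GC content was 64.8% for APOE, 62.4% for APOC1, 78.0% for PLIN2 and 70.4% for SOAT1, beside a median of 58.0% over all windows. RefSeq windows matched 7 of the 10 genes; for APOE, the one of 3 windows at the RefSeq gene start was used.

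The identity of the cells was checked first. Of 13 markers of microglia and macrophages all were tested, with 4 higher and 1 lower, and their summed level ran from 4830 to 5905 CPM in mono-culture and from 6213 to 8036 CPM in tri-culture. CPM are counts per 1e6 counts of a library after TMM scaling. CD68 was near 0 in both groups, at 0.618 ± 0.196 and 0.335 ± 0.176 CPM (SD, n = 4 each), and 81.7% of its exon bases in GENCODE 29 also belong to another gene on the same strand, AC016876.2. Library totals ran from 17037481 to 33363972 counts. With library size as the only scaling, 63.0% of all called genes were higher, against 51.7% with TMM.

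APOE (ENSG00000130203, GRCh38 chromosome 19, 44905754 to 44909393, plus strand) stood at 745, 686, 524 and 308 CPM in mono-culture libraries 1 to 4. In tri-culture libraries 1 to 4 it stood at 1113, 1586, 919 and 556 CPM. The groups overlapped, because tri-culture library 4 lay below mono-culture libraries 1 and 2, but each tri-culture library was above the mono-culture library of its own batch. The log2 differences within batches 1 to 4 were 0.58, 1.21, 0.81 and 0.85. Means were 566 ± 196 and 1043 ± 429 CPM, with a log2 change in edgeR of 0.88 ± 0.31 (SE) and adjusted p = 0.0485. With the batch as a replicate block the change was 0.86 with adjusted p = 0.00018. In the unblocked fit, omitting mono-culture library 2, 3 or 4 ended the call of APOE (adjusted p = 0.0696, 0.109 and 0.134). Omitting tri-culture library 1, 2 or 3 also ended it (adjusted p = 0.0753, 0.156 and 0.0723).

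APOC1 (ENSG00000130208, chromosome 19, 44914247 to 44919349), a minor component of lipoproteins, lies downstream of APOE on the same strand. Its levels were 27.9, 23.8, 20.4 and 16.0 CPM in mono-culture libraries 1 to 4 and 43.4, 121, 43.9 and 27.5 CPM in tri-culture libraries 1 to 4. Tri-culture library 2 was by far the highest of the 8 and also had the highest APOE. The other tri-culture libraries reached 43.9 CPM at most, and library 4 lay within the mono-culture range. All 4 batches had more APOC1 in tri-culture, by log2 differences of 0.64, 2.35, 1.11 and 0.78. The fitted log2 fold change was 1.42 ± 0.37 (SE, edgeR, adjusted p = 0.0111), and 0.79 (adjusted p = 0.0132) without tri-culture library 2. Omitting mono-culture library 3 or 4 ended the call (adjusted p = 0.0579 and 0.0507). In GENCODE 29, 43.2% of the exon bases of APOC1 also belong to AC011481.3, a gene model on the same strand that had 3 to 13 counts per library; how the authors treated reads over both is not given in the sources used here.

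APOC2 (ENSG00000234906), the lipoprotein lipase cofactor, was close to the limit of detection and was not tested. It had 4, 3, 11 and 0 counts in mono-culture libraries 1 to 4 and 8, 8, 7 and 5 counts in tri-culture libraries 1 to 4. Over the groups this was 18 against 28 counts, a rate ratio of 1.73 with an exact 95% interval of 0.924 to 3.32, which covers counting error only and includes no difference. The APOC4-APOC2 readthrough gene shares 55.4% of the exon bases of APOC2 and had 1 count in all. As for APOC1, the treatment of reads over both genes is not known, and the level of APOC2 is therefore uncertain.

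The ratio of APOC1 to APOE within a library does not depend on the scaling between libraries. On the authors' per-length table it was 0.0523, 0.0485, 0.0544 and 0.0725 in mono-culture libraries 1 to 4 and 0.0545, 0.107, 0.0669 and 0.0691 in tri-culture libraries 1 to 4. Apart from tri-culture library 2 the ratios of both groups covered the same range. The mean log2 ratio differed by 0.36 (2-sided exact permutation p = 0.229, adjusted p = 0.343 over 3 ratios, n = 4 each), so an unequal rise of the neighbouring genes was not shown.

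**Figure D1:**
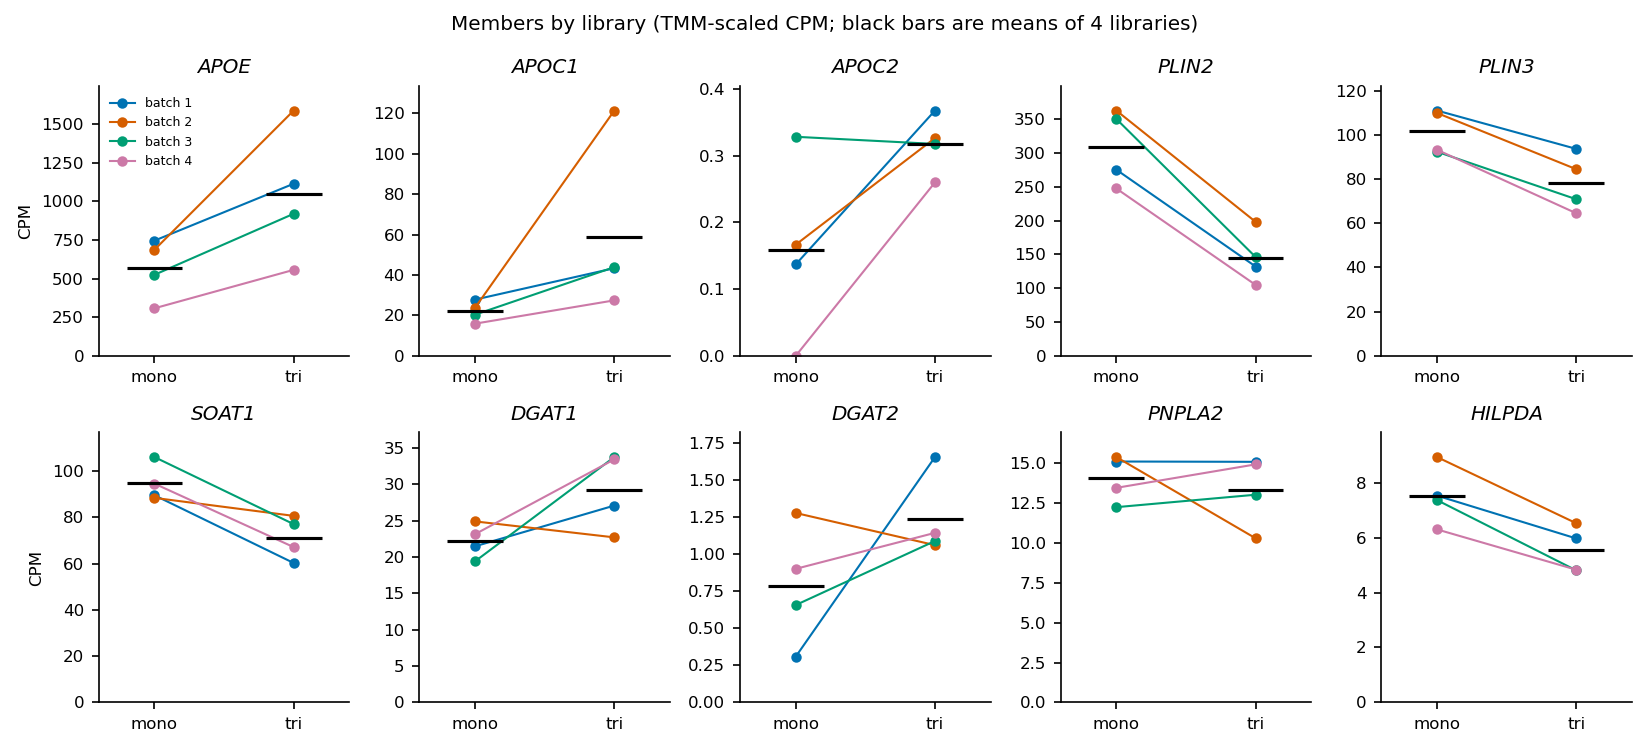
TMM-scaled CPM of the 10 genes in mono-culture and tri-culture; each line joins the 2 libraries of a batch and black bars are means of 4 libraries. APOE and APOC1 are higher and PLIN2, PLIN3, SOAT1 and HILPDA lower in tri-culture in all 4 batches.

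Apart from APOC1, no tested neighbour of APOE among those listed on chromosome 19 was called higher. Of 6 neighbours listed (TOMM40, NECTIN2, APOC4, CLPTM1, BCAM and BCL3), 5 were tested, 2 were lower and none higher by edgeR. At an unadjusted p under 0.05 none was higher either, nor by DESeq2 or limma-trend. TOMM40, a mitochondrial import channel gene directly upstream of APOE, stood at 53.9 ± 4.46 and 47.7 ± 5.41 CPM (adjusted p = 0.303). BCAM, a laminin receptor, fell from 11.9 ± 3.56 to 6.08 ± 2.20 CPM (adjusted p = 0.0178, but 0.066 without mono-culture library 1). BCL3, an NF-kB cofactor, stood at 12.7 ± 1.82 and 8.40 ± 2.23 CPM (adjusted p = 0.042), a call lost in 6 of 8 runs that each left out 1 library, with adjusted p between 0.0173 and 0.122. Those runs were the ones without mono-culture library 1, 2, 3 or 4 or tri-culture library 2 or 3. BCL3 was also not called in edgeR with library size only (adjusted p = 0.0986) or in limma-trend (adjusted p = 0.121).

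Among 18 other apolipoprotein genes, 6 were tested, 2 of which were higher and 1 lower. APOA1, APOA4, APOA5, APOC3 and APOF, plasma apolipoproteins made mainly by liver or gut, and APOL5 had no count in any library, and a count of 0 allows up to 3 counts. CLU, clusterin or apolipoprotein J, a chaperone carried on lipoproteins and abundant in astrocytes, rose from 0.434 ± 0.168 to 54.1 ± 32.6 CPM, with a log2 change in edgeR of 6.92 ± 0.54 (SE) and adjusted p = 1.24e-06. It stood at 17.8, 39.4, 92.8 and 66.4 CPM in tri-culture libraries 1 to 4. APOL4, an intracellular apolipoprotein L, rose from 0.690 ± 0.537 to 6.81 ± 4.15 CPM. APOL6 fell from 50.9 ± 12.8 to 35.2 ± 2.15 CPM (adjusted p = 0.0204), and omitting library 3 of either group ended the call (0.0511 for mono-culture, 0.0551 for tri-culture). It was also not called in edgeR with library size only (adjusted p = 0.0656) or in limma-trend (adjusted p = 0.201).

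Most astrocyte markers were higher in the same tri-culture libraries as APOE. Of 15 listed, 14 were tested, 11 were higher and 1, ALDOC, lower (edgeR adjusted p = 0.0356). The summed level ran from 237 to 310 CPM in mono-culture and from 741 to 868 CPM in tri-culture. S100B (124 CPM) and SLC1A3 (109 CPM) made up most of the mono-culture sum. In tri-culture S100B had a mean of 359 CPM and SLC1A3 of 81.8 CPM. In mono-culture AQP4, ALDH1L1 and HEPACAM had no count. GFAP, the astrocyte filament protein, stood at 63.2, 151, 254 and 201 CPM in tri-culture libraries 1 to 4 and below 0.5 CPM in each mono-culture library. APOE stood between 308 and 745 CPM in mono-culture libraries and at 1113, 1586, 919 and 556 CPM in tri-culture libraries 1 to 4. S100B, of the same list, stood at 507, 436, 253 and 242 CPM in tri-culture libraries 1 to 4. AQP4, SLC1A2, GJA1, SOX9, FGFR3, SLC4A4 and AGT had the order of GFAP among these libraries. The other tested markers of the list, ALDH1L1, SLC1A3, S100B, NDRG2, ALDOC and HEPACAM, had other orders. Of 5 neural progenitor markers, 4 were tested and all 4 were higher, with sums of 0 to 0.0597 CPM in mono-culture and 23.0 to 59.2 CPM in tri-culture. SOX2, HES5 and PTPRZ1 had no count in mono-culture. The sum of 13 neuron markers was 22.0 to 42.0 CPM in mono-culture and 12.2 to 32.3 CPM in tri-culture, with 2 of 4 tested genes higher and 1 lower and GAD2 at 0 in all libraries. The sum of 9 mesenchymal markers was 15.5 to 35.4 CPM in mono-culture and 405, 18.3, 395 and 143 CPM in tri-culture libraries 1 to 4. In that list 1 of 4 tested genes was higher. Markers of the oligodendrocyte lineage summed to 154 to 185 and 211 to 295 CPM, with 3 of 6 tested genes higher and 1 lower. The part of these other cells in the rise of APOE, APOC1 and CLU was not tested, and in bulk RNA more cells of a type and more RNA per cell cannot be told apart.

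**Figure D2:**
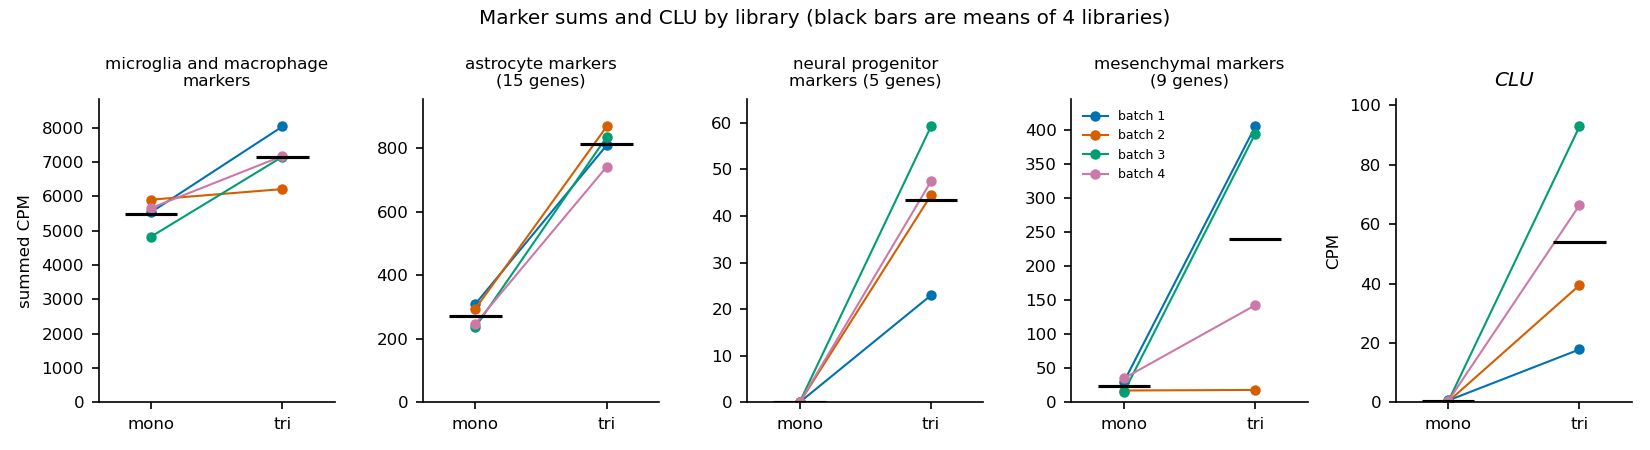
Summed TMM-scaled CPM of 4 marker lists and CPM of CLU, by library; lines join libraries of a batch and black bars are means of 4. The sums of astrocyte and neural progenitor markers and CLU are higher in every tri-culture library, whereas the mesenchymal sum of tri-culture library 2 (18.3 CPM) stays in the mono-culture range. Most of the astrocyte sum in mono-culture is S100B and SLC1A3.

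PLIN2, or adipophilin, coats droplets in most cell types and is degraded when unbound. The gene (ENSG00000147872, chromosome 9, 19108375 to 19149290, minus strand) shares no exon base with another gene in GENCODE 29. Its levels were 275, 363, 350 and 247 CPM in mono-culture libraries 1 to 4 and 132, 198, 146 and 105 CPM in tri-culture libraries 1 to 4. Every tri-culture library lay below every mono-culture library, and the log2 differences within batches 1 to 4 were -1.06, -0.87, -1.26 and -1.24. Of the 9 tested genes, PLIN2 and SOAT1 had such non-overlapping lower levels, as did 14.1% of all tested genes, and none of the 9 had non-overlapping higher levels, against 15.3% of all tested genes. Means were 309 ± 56.3 and 145 ± 39.1 CPM, with a log2 change in edgeR of -1.09 ± 0.19 (SE) and adjusted p = 0.000704. In the 15 alternative runs the change stayed past the threshold, with adjusted p of 0.00412 at most.

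PLIN3, also called TIP47, moves between the cytosol and nascent droplets. The gene (ENSG00000105355, chromosome 19, 4838341 to 4867768, minus strand) stood at 111, 109.9, 92.4 and 93.3 CPM in mono-culture libraries 1 to 4 and at 93.7, 84.5, 70.9 and 64.5 CPM in tri-culture libraries 1 to 4. Tri-culture library 1 overlapped the mono-culture range by a narrow margin, and all 4 batches had lower values in tri-culture. The log2 fold change was -0.37 ± 0.13 (SE, edgeR) and narrowly missed the threshold (adjusted p = 0.0502). It passed with the batch as a replicate block (log2 fold change -0.38, adjusted p = 0.0137) and without tri-culture library 1 (-0.48, adjusted p = 0.0157).

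Per length, PLIN2 exceeded PLIN3 in mono-culture, with ratios of 1.11, 1.48, 1.70 and 1.19 in libraries 1 to 4. In tri-culture the ratios were 0.633, 1.05, 0.925 and 0.729, so PLIN3 was the more abundant coat gene in 3 of 4 libraries. The ranges of the 2 groups did not overlap. The log2 ratio was 0.72 lower in tri-culture, with a 2-sided exact permutation p = 0.0286, the smallest that 4 against 4 libraries can give, and adjusted p = 0.0857 over the 3 ratios. This ratio therefore did not pass after adjustment.

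The other perilipins were near 0. PLIN1 had 1 count in mono-culture and 18 in tri-culture, PLIN4 had 18 and 23, and PLIN5 had 0 and 1. CIDEA, CIDEB and CIDEC, which fuse droplets in fat and liver cells, had no count in any library. Of 20 further genes of droplet coat and assembly, 12 were tested, 2 of which were higher and 2 lower, and the list's median log2 change was -0.10. HSD17B11, a droplet-associated dehydrogenase, rose from 51.8 ± 6.32 to 88.8 ± 22.4 CPM (adjusted p = 0.00342). TMT1A, a membrane methyltransferase found on droplets, rose from 115 ± 22.5 to 162 ± 6.69 CPM (adjusted p = 0.0148, and 0.0616 without mono-culture library 4). SPART, spartin, which takes part in droplet turnover, fell from 157 ± 11.2 to 107 ± 13.9 CPM (adjusted p = 0.00267). AUP1, which recruits ubiquitin enzymes to droplets, fell from 104 ± 11.4 to 83.2 ± 4.34 CPM (adjusted p = 0.0359). Lower genes numbered 1 in place of 2 when mono-culture library 2 or 4, or any single tri-culture library, was omitted. They also numbered 1 with library size only, in limma-trend and without a filter. BSCL2, the seipin gene of droplet budding, stood at 0.740 ± 0.272 and 0.617 ± 0.339 CPM; 40.6% of its exon bases belong also to the readthrough gene HNRNPUL2-BSCL2, and how reads over both were counted is not known.

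SOAT1, or ACAT1, esterifies cholesterol for storage in droplets. The gene (ENSG00000057252, chromosome 1, 179293714 to 179358680, plus strand) stood at 89.5, 88.4, 106 and 94.5 CPM in mono-culture libraries 1 to 4 and at 60.2, 80.6, 77.0 and 67.1 CPM in tri-culture libraries 1 to 4. The groups did not overlap, and the gap between the lowest mono-culture library and the highest tri-culture library was small. Means were 94.6 ± 8.08 and 71.2 ± 9.30 CPM, with a log2 change in edgeR of -0.41 ± 0.12 (SE) and adjusted p = 0.0194. Omitting mono-culture library 3 ended the call (adjusted p = 0.0597), as did scaling by library size alone (-0.31, adjusted p = 0.0915). SOAT2, the isoform of liver and gut, had 1 count in each group.

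DGAT1 and DGAT2 carry out the last step of triglyceride synthesis and belong to unrelated protein families. DGAT1 (ENSG00000185000, chromosome 8) stood at 21.5, 24.9, 19.4 and 23.2 CPM in mono-culture libraries 1 to 4 and at 27.1, 22.7, 33.8 and 33.5 CPM in tri-culture libraries 1 to 4. Tri-culture libraries 1, 3 and 4 lay above all mono-culture libraries and library 2 within them. The log2 fold change was 0.40 ± 0.15 (SE, edgeR, adjusted p = 0.0675), and DGAT1 was called higher without tri-culture library 2 (0.50, adjusted p = 0.0189). DGAT2 (ENSG00000062282, chromosome 11) had only 9, 23, 22 and 15 counts in mono-culture libraries and 36, 26, 24 and 22 in tri-culture libraries, or 0.785 ± 0.408 and 1.24 ± 0.280 CPM, with a log2 change in edgeR of 0.69 ± 0.43 (SE) and adjusted p = 0.278. Per length DGAT2 was 0.00739 to 0.0264 of DGAT1 in mono-culture and 0.0166 to 0.0315 in tri-culture, and the difference of the log2 ratios, 0.43, did not pass (2-sided exact permutation p = 0.486, adjusted p = 0.486).

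Other genes of neutral lipid synthesis act upstream of these enzymes, in fatty acid activation and glycerolipid assembly. Of 21 such genes, 15 were tested, 7 of which were lower and 2 higher, where 13.0% of all tested genes were lower and 13.9% higher. Lower genes numbered 5 with library size as the only scaling and 4 in limma-trend, and the list's median log2 change was -0.39. All 4 tested acyl-CoA synthetase genes fell (ACSL1, ACSL3, ACSL4 and ACSL5), together with LPIN1, GPAT4 and AGPAT3. The higher genes were LPIN2 and AGPAT1 (adjusted p = 0.0416), and their number was 1 when mono-culture library 1, 3 or 4 or tri-culture library 1 or 4 was omitted. ACSL1, which activates long-chain fatty acids, stood at 275, 222, 257 and 199 CPM in mono-culture libraries 1 to 4 and at 86.2, 94.3, 103 and 94.4 CPM in tri-culture libraries 1 to 4, with a log2 change in edgeR of -1.34 ± 0.12 (SE) and adjusted p = 4.82e-06. Its groups lay far apart. ACSL3, the synthetase of nascent droplets, fell from 182 ± 25.5 to 106 ± 2.60 CPM (adjusted p = 0.000221). The phosphatidate phosphatases moved in opposite directions: LPIN2 rose from 104 ± 10.8 to 193 ± 29.6 CPM (adjusted p = 0.000163), and LPIN1 fell from 61.2 ± 14.6 to 29.7 ± 2.98 CPM (adjusted p = 0.000319).

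**Figure D3:**
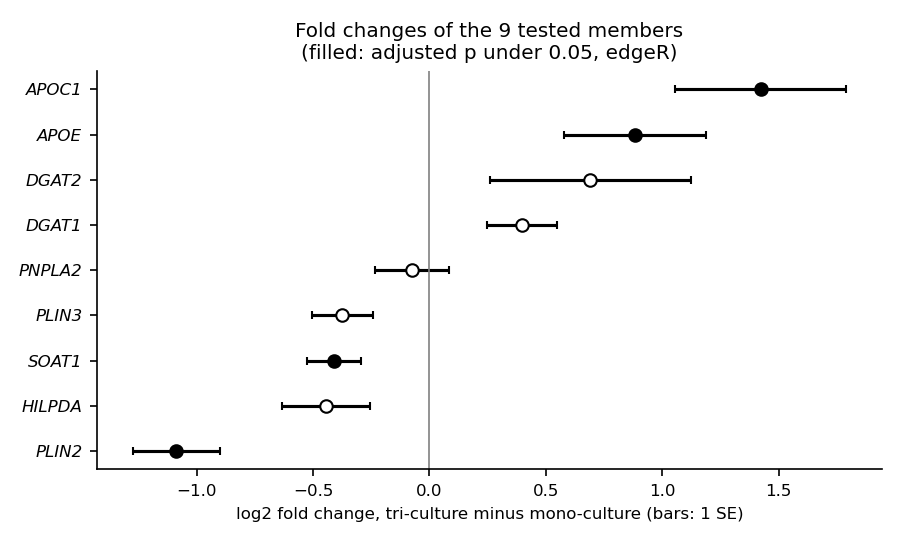
Log2 fold changes (tri-culture minus mono-culture) of the 9 tested genes with 1 SE; filled points passed an adjusted p under 0.05 in edgeR. APOC1 (1.42) and APOE (0.88) lie to the right, PLIN2 (-1.09) and SOAT1 (-0.41) to the left, and PLIN3 (-0.37) missed the threshold.

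PNPLA2, or ATGL, begins the hydrolysis of stored triglyceride. It (ENSG00000177666, chromosome 11) stood at 15.1, 15.4, 12.2 and 13.4 CPM in mono-culture libraries 1 to 4 and at 15.1, 10.3, 13.0 and 14.9 CPM in tri-culture libraries 1 to 4. The groups overlapped almost entirely, and the batches were split between both directions. The log2 fold change was -0.08 ± 0.16 (SE, edgeR, adjusted p = 0.782), and its sign turned with library size as the only scaling (0.03), in limma-trend (0.06) and without tri-culture library 2 (0.03).

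HILPDA (ENSG00000135245, chromosome 7), a small droplet protein that inhibits PNPLA2 and is induced by hypoxia, stood at 7.53, 8.94, 7.37 and 6.30 CPM in mono-culture libraries 1 to 4 and at 5.97, 6.53, 4.81 and 4.83 CPM in tri-culture libraries 1 to 4. It was lower in tri-culture in all 4 batches, yet the ranges overlapped. The log2 fold change of -0.44 ± 0.19 (SE, edgeR) did not pass (adjusted p = 0.106). Of 12 other genes known to respond to hypoxia, 9 were tested, 3 were higher and 2 lower. The smallest adjusted p belonged to ADM, adrenomedullin, which fell from 10.2 ± 1.49 to 2.27 ± 0.710 CPM, SLC2A1, a glucose transporter, which rose from 0.555 ± 0.267 to 3.81 ± 1.13 CPM, and NDRG1, which rose from 11.3 ± 3.05 to 28.9 ± 11.3 CPM.

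Of 12 further genes of lipolysis, 9 were tested, 4 were lower and none higher by edgeR, where 13.0% of all tested genes were lower and 13.9% higher. None was higher at an unadjusted p under 0.05, by DESeq2 or by limma-trend, and the list's median log2 change was -0.27. MGLL, monoacylglycerol lipase, which also degrades the endocannabinoid 2-arachidonoylglycerol, stood at 193, 161, 164 and 169 CPM in mono-culture libraries 1 to 4. In tri-culture libraries 1 to 4 it stood at 27.2, 30.3, 36.2 and 36.1 CPM, 5.30-fold lower, with a log2 change in edgeR of -2.41 ± 0.12 (SE) and adjusted p = 4.84e-08. PNPLA3, a droplet protein related to PNPLA2, fell 7.36-fold from 20.3 ± 7.18 to 2.75 ± 0.619 CPM (adjusted p = 4.9e-06). LIPA, the lysosomal acid lipase, fell from 3213 ± 416 to 1950 ± 732 CPM (adjusted p = 0.0339). Omitting mono-culture library 1, 2 or 4 ended the call of LIPA (adjusted p = 0.0956, 0.0693 and 0.0598), and so did omitting tri-culture library 1, 3 or 4 (0.0762, 0.0572 and 0.0837). LIPA was also not called in edgeR with library size only (adjusted p = 0.0522) or in limma-trend (adjusted p = 0.0612). Lower lipolysis genes numbered 2 in place of 4 when mono-culture library 1 or 2, or tri-culture library 1, 3 or 4, was omitted. They also numbered 2 with library size only and in limma-trend. LPL, the secreted lipase for which APOC2 is the cofactor, stood at 679 ± 77.6 and 618 ± 191 CPM (adjusted p = 0.677), and ABHD5, the activator of PNPLA2, at 16.1 ± 2.08 and 18.1 ± 5.27 CPM (adjusted p = 0.594).

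**Figure D4:**
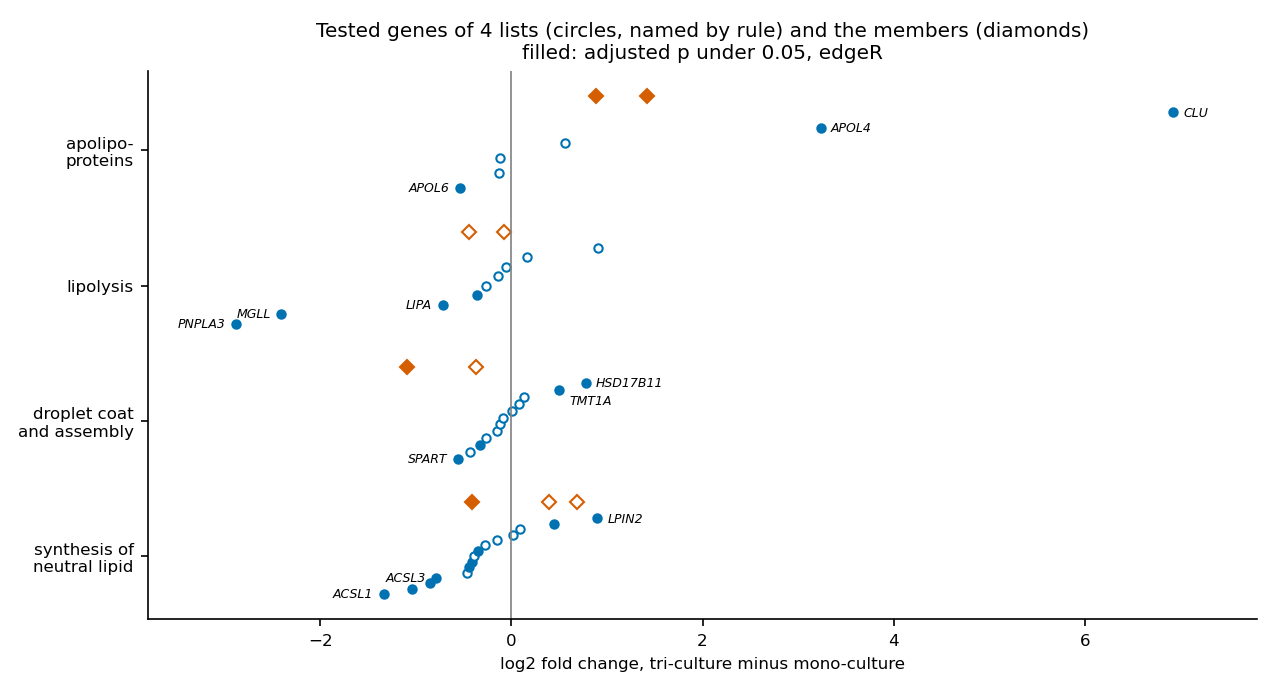
Log2 fold changes of the tested genes of 4 lists (circles) and of the 9 tested genes described here (diamonds), by role; filled symbols passed an adjusted p under 0.05 in edgeR. Called genes were 7 lower and 2 higher in synthesis and 4 lower and none higher in lipolysis, where 13.0% of all tested genes were lower. With library size only, lower genes numbered 5 in synthesis and 2 in lipolysis, and in limma-trend 4 and 2. CLU lies far to the right among apolipoproteins.

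The LXR receptors control APOE and cholesterol efflux in macrophages. Of 7 genes listed, target genes and receptor genes together, 2 were higher and 3 lower. The higher genes were the targets ABCG1 and MYLIP. The lower genes were the target SREBF1 (edgeR adjusted p = 0.0331) and both receptor genes, NR1H3 and NR1H2 (edgeR adjusted p = 0.0189 for NR1H2). The targets ABCA1 and LPCAT3 were not called. Lower genes numbered 1 when mono-culture library 4 was omitted, with library size only and in limma-trend. The cholesterol transporter ABCG1 rose from 118 ± 26.3 to 188 ± 17.6 CPM (adjusted p = 0.00358), and the receptor gene NR1H3 fell from 33.5 ± 5.29 to 15.4 ± 5.98 CPM (adjusted p = 0.0026). MYLIP, which degrades the LDL receptor, rose from 30.6 ± 7.56 to 46.1 ± 5.02 CPM (adjusted p = 0.0159, and 0.0556 and 0.0527 without mono-culture library 2 or 3).

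Levels can be compared between genes on the per-length values, rescaled here to a total of 1e6 per library. In mono-culture the order was APOE at 624 ± 196, PLIN2 at 166 ± 29.1, PLIN3 at 121 ± 6.94, SOAT1 at 41.8 ± 6.43, APOC1 at 34.1 ± 6.99, DGAT1 at 18.4 ± 1.21, HILPDA at 12.3 ± 1.11, PNPLA2 at 11.6 ± 0.616, DGAT2 at 0.331 ± 0.155 and APOC2 at 0.146 ± 0.133 (SD, n = 4 each). The neighbours SOAT1 and APOC1, HILPDA and PNPLA2, and DGAT2 and APOC2 overlapped in their ranges. In tri-culture the order was APOE at 1260.0 ± 446, PLIN3 at 103 ± 8.40, APOC1 at 99.3 ± 65.9, PLIN2 at 85.7 ± 19.9, SOAT1 at 34.7 ± 5.70, DGAT1 at 27.2 ± 7.14, PNPLA2 at 12.3 ± 2.51, HILPDA at 9.93 ± 0.795, DGAT2 at 0.581 ± 0.101 and APOC2 at 0.320 ± 0.0269. There PLIN3, APOC1 and PLIN2 overlapped, as did SOAT1 with DGAT1 and PNPLA2 with HILPDA. By mean per-length level APOE ranked 136th among the 16249 tested genes in mono-culture and 62nd in tri-culture, and PLIN2 ranked 675th and 1479th.

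**Figure D5:**
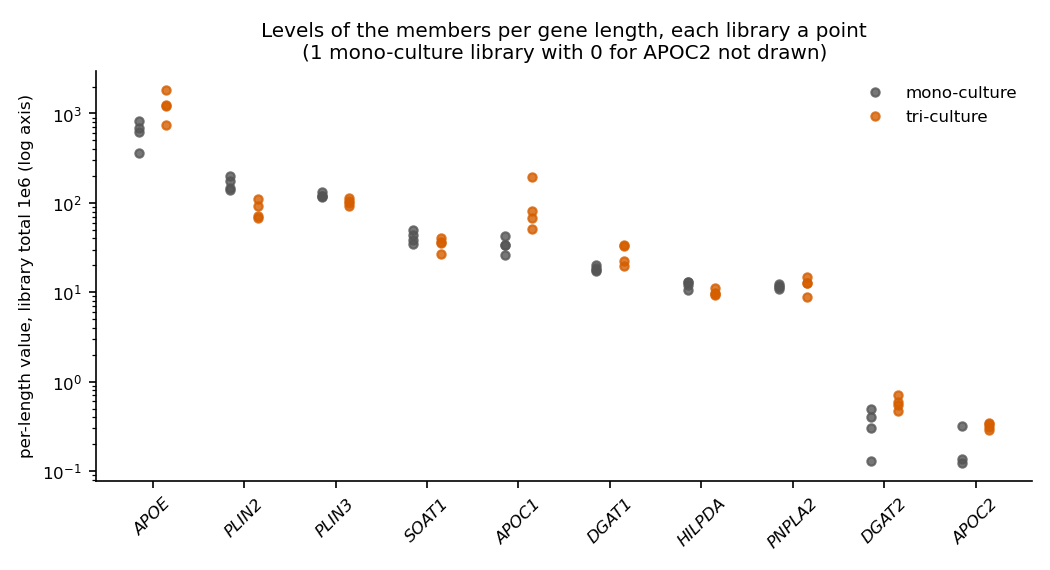
Per-length values (authors' table, rescaled to 1e6 per library) on a log axis, each library a point, genes ordered by their mono-culture mean. APOE is the highest in both groups, DGAT2 and APOC2 stay below 1, the mean of PLIN2 lies above that of PLIN3 in mono-culture and below it in tri-culture, and 1 mono-culture library with 0 for APOC2 is not drawn.

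Over the 8 libraries, the genes whose centred log2 CPM profiles lay nearest to that of APOE, among 10591 with a mean of at least 5 CPM, were LGALS3, MACROH2A2 and ZNF626, at root mean square differences of 0.288, 0.289 and 0.290 (log2). LGALS3, galectin-3, went from 92.7 to 159 CPM. The nearest to PLIN2 were GTSE1, KMO and CTSL, at 0.117, 0.118 and 0.139. GTSE1, a mitotic gene, went from 22.1 to 10.3 CPM, KMO, an enzyme of tryptophan breakdown, from 9.94 to 4.49 CPM, and CTSL, cathepsin L, from 583 to 299 CPM.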

How the data were processed

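The deposited counts are whole numbers of reads for each gene. The submitters' processing notes name HISAT2 2.1.0, featureCounts 2.12.3 and GRCh38; the sources used here do not give annotation release, strand setting or overlap handling. The second deposited table, a signal the authors named TPM, had totals of 0.866 to 1.14 (in units of 1e6) and was rescaled to 1e6 per library. Genes were filtered with filterByExpr (minimum count 10, total 15), scaled with TMM and tested on group with edgeR 4.0.16 (quasi-likelihood, robust, R 4.3.3) over all 16249 genes, Benjamini-Hochberg adjusted. SE is the absolute log2 fold change over the square root of F. On simulated counts of this comparison (16249 genes, 50 changed per size) 20% of 1.5-fold, 66% of 2-fold and 92% of 4-fold changes were recovered. Far fewer genes were changed there than the 26.9% called in the data. The adjusted threshold was therefore stricter in the simulation, which may understate recovery in the data. The changed genes were drawn only from those above a minimum mean count, so the shares do not cover tested genes with fewer counts. Gene models are GENCODE 29, promoters RefSeq. The members, lists and tests were chosen with earlier results of these data known. Named genes of the pathway lists are the up to 3 called genes with the smallest adjusted p per list and genes at 0. Others (LPIN1, AGPAT1, AGPAT3, GPAT4, ACSL4, ACSL5, AUP1, TOMM40, LPL, ABHD5, BSCL2, PLIN1, PLIN4, PLIN5, SOAT2, SREBF1, NR1H2, ABCA1 and LPCAT3) were chosen after their values were seen. So were the markers CD68, CX3CR1, P2RY12, C1QB, C1QC, ITGAM, GFAP, S100B, SLC1A3, ALDOC, SLC1A2, GJA1, SOX9, NDRG2, FGFR3, SLC4A4 and AGT. The labels give both groups the same batch numbers, so these pair the libraries; deviations from group means correlated at 0.185, 0.126, 0.264 and 0.08 in batches 1 to 4. P-values rest on the spread among 4 batches of one cell line. Alternatives were RLE scaling, library size only, no or a stricter filter (minimum 50), DESeq2 1.42.0, limma-trend (limma 3.58.1, pseudocount 1) on the deposited signal, the batch block and each library left out.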

Additional observations from a re-analysis of the deposited data

Results flagged for a closer look

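DGAT2 in tri-culture library 1 stood at 1.65 CPM while the other 3 tri-culture libraries lay between 1.06 and 1.14 CPM, a gap of 0.86 of the group's range. It was the only 1 of 26 groups of 4 values checked in this way (10 genes and 3 ratios in both groups), and chance flags about 1 in 20. The library had 36 counts of DGAT2.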

How the results depend on the processing

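PLIN2, DGAT2 and HILPDA kept their direction and their side of the threshold in every alternative run for them. APOC2, not tested in the main fit, kept its direction without a filter and with DESeq2 and was not called in either. The 3 within-library ratios kept their direction and passed in no run. That was largely set in advance, because 1 ratio alone at the smallest p of 0.0286 stays at 0.0857 after adjustment over 3. APOE (log2 fold change 0.88) lost its call with DESeq2 (0.87, adjusted p = 0.102) and without a filter (0.87, adjusted p = 0.318), and APOC1 without a filter (1.42, adjusted p = 0.195). PLIN3 was called lower with RLE factors (-0.38), a minimum count of 50 (-0.35), no filter (-0.39) and the replicate block (-0.38). SOAT1 was not called with library size only (-0.31) or limma-trend (-0.26), DGAT1 was called higher with library size only (0.51), and PNPLA2 changed sign, uncalled, with library size only (0.027), in limma-trend (0.056) and without tri-culture library 2 (0.028). The causes were not tested. Library size only shifted the median log2 change over tested genes from 0.02 to 0.12. Higher members numbered 1 with DESeq2 and 0 without a filter instead of 2, and lower members 1 with library size only and 1 in limma-trend. Genes called lower numbered 1340 in limma-trend instead of 2112, and pathway list genes called lower 12 with library size only and 11 in limma-trend instead of 21. Over runs leaving out 1 library, higher members ranged from 0 to 2 and lower members from 1 to 3, and log2 fold changes from 0.61 to 1.09 for APOE, 0.79 to 1.66 for APOC1, -0.48 to -0.29 for PLIN3, -0.48 to -0.34 for SOAT1, 0.32 to 0.50 for DGAT1 and -0.15 to 0.03 for PNPLA2. The replicate block changed the call of PLIN3 and of no other member; for the ratios, sign flips of 4 batches cannot give a p under 0.125. Depth limits APOC2 and DGAT2.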
